A study of Mus musculus with 18 samples.

Results

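The gasdermin and inflammasome genes examined here are 10 genes taken by name out of the 55487 genes counted in each library. They are 2 gasdermins (Gsdme and Gsdmd), 6 sensors (Nlrp1a, Nlrp1b, Nlrp3, Nlrc4, Naip2 and Naip5), the protease gene Casp1 and the adaptor gene Pycard, and all 10 symbols were found. Total RNA was sequenced from 18 male mice on chow after a 4 h fast, with 1 mouse per library. Every mouse carried Csn8 f/f, a Csn8 allele with loxP sites, and Csn8 encodes a subunit of the COP9 signalosome, which removes NEDD8 from cullins. The Ctrl mice were Csn8 f/f; AdipoqCre- and the Csn8AKO mice were Csn8 f/f; AdipoqCre+, in which Cre under the adiponectin promoter deletes part of Csn8 in adipocytes and leaves the other cells of the depot unedited. The sWAT (subcutaneous white adipose tissue) came from 4 Ctrl and 4 Csn8AKO mice at 12 weeks of age. The BAT (brown adipose tissue) came from 5 Ctrl and 5 Csn8AKO mice at 4 weeks of age, so that tissue and age cannot be told apart.

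Pyroptosis is a lytic form of cell death in which a protease cuts a gasdermin, and the freed amino-terminal part of the gasdermin opens pores in the plasma membrane. An inflammasome is the platform that starts this: a sensor protein detects a microbial product or damage and, directly or through the adaptor ASC (gene Pycard), gathers and activates caspase-1, which cuts gasdermin D and the precursors of interleukin-1 beta and interleukin-18. Gasdermin E is another pore-forming member of the gasdermin family. In adipose tissue, macrophages are a well known source of inflammasome components, while gasdermins are also made by other cells.

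The members have close relatives in the genome, so the sequences that tell them apart are given first, beginning with the primers with which the study measured Gsdme and Nlrp1a by RT-PCR. They are written 5′ to 3′, and capitals in the Nlrp1a primers mark the bases that differ from the closest stretch of the relative Nlrp1b. The Gsdme primers are left unmarked. Against Gsdmd they had at least 8 (forward) and 6 (reverse) mismatches.
Gsdme forward: ggcagagacccaagtaccag
Gsdme reverse: cctttgccaccaacgttcag
Nlrp1a forward: AatgggaGgccttgctgaaa
Nlrp1a reverse: atgctggtccatgaagtgca

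The Gsdme primers matched transcripts of Gsdme and of no other gene in the GENCODE M21 annotation, at bases 178 and 342 of the transcript, with an amplicon of 184 bases. The Nlrp1a reverse primer matched both Nlrp1a and Nlrp1b without a mismatch, so only 2 mismatches in the forward primer set the 155-base product apart from Nlrp1b. Whether these primers also amplify Nlrp1b was not tested. The sequencing reads were less exposed to this relative. Of the stretches of 150 bases (the read length) in the longest coding transcript of each gene, none in Nlrp1a or Nlrp1b occurred in a transcript of another gene. For Naip5, 417 of 5055 such stretches (8.25%) also occurred in another gene, most of them in Naip3, and for Naip2 26 of 4674 did (0.556%). For Pycard, 336 of 3651 (9.20%) lay in Gm45205, a gene on the opposite strand that shares 485 exonic bases with it. Only uniquely aligned, unambiguous reads were counted, so reads lying wholly in the shared Naip stretches may be missing from the counts. The sources do not state whether strand was used in counting, so the count of Pycard is uncertain by the reads from the bases shared with Gm45205. The other 7 members had no shared stretch. Gsdme lies over 10052 bases of Mpp6, which is on the opposite strand, with no exonic base in common. Mpp6 had 337 to 447 reads, unscaled, in sWAT Ctrl and 366 to 998 in sWAT Csn8AKO. The 366 reads were in Csn8AKO 4, where ribosomal RNA genes took 47.8% of the reads. In BAT it had 693 to 1070 in Ctrl and 362 to 933 in Csn8AKO. BAT Csn8AKO 2, 3 and 5 had 362, 407 and 411 of its reads. Those libraries held 26658593 to 30099221 counted reads in all, against 44065520 to 66719937 in BAT Ctrl. The unscaled ranges therefore cannot be compared between genotypes. Whether reads from introns of Mpp6 entered the Gsdme count was not tested.

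The paralogous sensors also share stretches of promoter. The 120 bases before the RefSeq start site (GRCm38.p6) of the pairs Nlrp1a and Nlrp1b, which lie next to each other on chromosome 11, and Naip2 and Naip5, which lie next to each other on chromosome 13, are shown because both genes of each pair were higher in Csn8AKO BAT. Capitals mark the longest run of bases that the genes of a pair share, which was 37 bases for the Nlrp1 genes and 34 for the Naip genes. All of them are read from the minus strand.
Nlrp1a, chr11:71144705-71144824: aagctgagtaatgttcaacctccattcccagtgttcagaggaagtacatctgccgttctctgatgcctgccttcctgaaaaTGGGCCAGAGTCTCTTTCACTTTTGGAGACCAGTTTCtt
Nlrp1b, chr11:71230734-71230853: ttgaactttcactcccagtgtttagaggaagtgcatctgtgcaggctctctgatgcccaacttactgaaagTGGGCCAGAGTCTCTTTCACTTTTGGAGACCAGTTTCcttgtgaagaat
Naip2, chr13:100202123-100202242: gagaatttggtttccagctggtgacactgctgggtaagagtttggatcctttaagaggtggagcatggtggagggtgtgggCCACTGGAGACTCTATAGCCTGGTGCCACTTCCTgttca
Naip5, chr13:100247337-100247456: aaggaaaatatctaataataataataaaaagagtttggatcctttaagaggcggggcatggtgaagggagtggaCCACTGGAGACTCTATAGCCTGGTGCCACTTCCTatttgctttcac

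The RefSeq start sites of Naip2 and Naip5 lie outside the genes as the files bound them. Capitals in the Casp1 sequence below, from the plus strand, mark instead the matches to the ETS-IRF composite motif, a site for a pair of transcription factors of myeloid and lymphoid cells.
Casp1, chr9:5298397-5298516: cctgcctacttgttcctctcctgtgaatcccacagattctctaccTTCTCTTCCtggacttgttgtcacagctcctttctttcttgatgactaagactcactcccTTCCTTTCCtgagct

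Motifs were searched on both strands in windows of 250 bases before to 50 after the start site. Gsdmd had no promoter in the set used and was not searched. The PU.1 core (GAGGAAGT, bound by the master regulator of myeloid cells) was found in Nlrp1a, 83 bases before the start, and in Nlrp1b, 96 bases before it. In Pycard it was found on the strand opposite to the gene, 44 bases before the start. Of 32851 mouse promoters, 3.20% held it. The ETS-IRF composite (GGAANNGAA) was found in Casp1 at 75 and 15 bases before the start, both on the strand opposite to the gene. In Nlrc4 it was found on the strand of the gene at 236 bases, against 8.24% of promoters. The interferon response motif (GAAANNGAA), which shares letters with the composite, was found in Naip2 at 4 bases before the start, on the opposite strand, against 8.56%. Such a match describes the sequence and is not a measured binding site.

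The libraries held 15835721 to 23109603 counted reads in sWAT and 26658593 to 66719937 in BAT. Csn8, listed as Cops8, stood at 35.0 ± 0.911 CPM in sWAT Ctrl and 32.2 ± 2.99 in sWAT Csn8AKO (SD, n = 4; adjusted p = 0.623), and it fell by 0.30 on the log2 scale in BAT (adjusted p = 0.0211), where it was 39.4 ± 3.22 against 32.1 ± 3.56 CPM (n = 5). This count covers all exons of the gene and all cells of the depot, so it does not check the deletion itself. Adipoq marked all libraries, at 491 to 1564 CPM in sWAT and 617 to 781 in BAT, and Ucp1, the uncoupling protein of brown fat, was 1568 to 5243 CPM in BAT and at most 6.89 in sWAT. Some libraries stood apart. B cell markers summed to 152 CPM in sWAT Ctrl 1 and 396 in sWAT Csn8AKO 2, against 2.99 to 11.8 in the other 6 sWAT libraries. Ribosomal RNA genes took 31.8% and 47.8% of the reads of sWAT Csn8AKO 3 and 4, against 1.80% to 19.8% in the other sWAT libraries. Skeletal muscle markers summed to 101.4 and 179.5 CPM in BAT Csn8AKO 1 and 5, against 1.34 to 2.23 in the other 8 BAT libraries. In sWAT they summed to 2696 CPM in Ctrl 3 and 1596 in Csn8AKO 4, against 43.8 to 469 in the other 6 libraries.

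In sWAT, 5 of the 10 genes were higher in Csn8AKO than in Ctrl and none was lower. The 5 were the gasdermins Gsdme and Gsdmd and the sensors Nlrp1a, Nlrc4 and Naip2. Of all 18843 genes tested, 2.30% were higher and 3.00% were lower at the same threshold, an adjusted p under 0.05 by edgeR's quasi-likelihood test with Benjamini-Hochberg adjustment. Levels are given as CPM, counts relative to the TMM-scaled library size within the tissue, for libraries 1 to 4 of each group in order, and changes as log2 fold changes of Csn8AKO over Ctrl with their standard error (SE). In bulk tissue, more cells of a type and more RNA per cell cannot be told apart, and 7 of 12 macrophage markers were higher in the same comparison. The expression filter asked for 4 sWAT libraries or 5 BAT libraries above a minimum, and all 10 genes passed it in both tissues. Nlrp1a passed it through the Csn8AKO libraries, as only 3 of the 4 sWAT and 1 of the 5 BAT Ctrl libraries were above it, and so did Nlrp1b in BAT, with 4 of the 5 Ctrl libraries above it.

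Gsdme (ENSMUSG00000029821, chr6:50188888-50263862), the gene of the pore-forming gasdermin E, stood at 9.23, 9.93, 9.06 and 6.80 CPM in the Ctrl sWAT libraries and at 21.1, 15.0, 19.9 and 19.2 CPM in the Csn8AKO ones. Each Csn8AKO library was well above each Ctrl library, and Gsdme rose by 1.10 (SE 0.18, adjusted p = 0.00813). It was the member of smallest adjusted p in sWAT, and it passed the threshold whichever single library was left out. Gsdmd (ENSMUSG00000022575, chr15:75862327-75867408), the pore protein released by caspase-1, stood at 23.2, 16.3, 18.7 and 21.7 CPM in Ctrl and at 31.1, 35.6, 33.4 and 25.0 CPM in Csn8AKO. The groups did not overlap, but they came close, and the rise of 0.65 (SE 0.16) was near the threshold, with an adjusted p of 0.0460.

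Nlrp1a (ENSMUSG00000069830, chr11:71092236-71144704), a sensor that the proteases DPP8 and DPP9 hold in check, was the scarcest member in sWAT, at 0.860, 0.608, 0.829 and 0.831 CPM in Ctrl, which are 12 to 19 reads a library, and at 2.78, 1.81, 1.59 and 1.94 CPM in Csn8AKO. Its estimated change was the largest of the 10 in sWAT, 1.37 (SE 0.31, adjusted p = 0.0324), with no overlap of the groups. Its neighbour Nlrp1b (ENSMUSG00000070390, chr11:71153102-71230733), the sensor that anthrax lethal toxin activates, stood at 4.57, 5.22, 4.03 and 4.26 CPM in Ctrl and at 8.15, 8.24, 5.45 and 7.93 CPM in Csn8AKO. All Csn8AKO libraries were above all Ctrl libraries here too, by 0.72 (SE 0.20), and the adjusted p of 0.0732 missed the threshold.

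Nlrc4 (ENSMUSG00000039193, chr17:74425438-74459142), the partner that carries the signal of the NAIP sensors to caspase-1, stood at 2.99, 2.73, 2.25 and 4.36 CPM in Ctrl and at 8.66, 7.42, 5.79 and 5.98 CPM in Csn8AKO. The groups were apart and Nlrc4 rose by 1.18 (SE 0.26, adjusted p = 0.0295). Naip2 (ENSMUSG00000078945, chr13:100144063-100202092), which senses the inner rod protein of bacterial type III secretion systems, stood at 9.41, 6.38, 9.71 and 8.88 CPM in Ctrl and at 24.1, 19.3, 17.6 and 13.8 CPM in Csn8AKO. It rose by 1.12 (SE 0.21, adjusted p = 0.0152), and its lowest Csn8AKO library was above every Ctrl library. Naip5 (ENSMUSG00000071203, chr13:100211739-100246323), the sensor of flagellin, stood at 6.74, 4.00, 8.11 and 6.65 CPM in Ctrl and at 13.2, 10.1, 10.5 and 10.8 CPM in Csn8AKO. The groups did not overlap, while its log2 fold change of 0.81 (SE 0.23) had an adjusted p of 0.0708.

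Nlrp3 (ENSMUSG00000032691, chr11:59541568-59566956), which responds to potassium loss and many kinds of damage, stood at 2.04, 1.32, 1.84 and 1.51 CPM in Ctrl and at 2.73, 5.11, 0.965 and 1.87 CPM in Csn8AKO sWAT. The Csn8AKO libraries lay on both sides of the Ctrl ones, and the highest of them was Csn8AKO 2, the library rich in B cell markers. Its log2 fold change was 0.69 (95% interval -0.31 to 1.68, adjusted p = 0.442), and without that library and Ctrl 1 it was 0.28 (adjusted p = 0.741).

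Casp1 (ENSMUSG00000025888, chr9:5298508-5307290), the caspase of the canonical inflammasome, stood at 6.20, 9.87, 6.69 and 5.40 CPM in Ctrl and at 14.5, 9.55, 11.4 and 7.63 CPM in Csn8AKO sWAT. The groups overlapped through Ctrl 2, and the log2 fold change was 0.62 (95% interval 0.05 to 1.18, adjusted p = 0.204). Pycard (ENSMUSG00000030793, chr7:127989708-127993867) stood at 8.64, 6.23, 7.82 and 7.06 CPM in Ctrl and at 9.77, 14.6, 11.4 and 8.90 CPM in Csn8AKO. The 2 ranges nearly touched, and the log2 fold change of 0.59 (SE 0.20) had an adjusted p of 0.130. Gm45205, which shares exonic bases with Pycard, had 0 to 11 reads in Ctrl and 9 to 26 in Csn8AKO sWAT, unscaled. Its part in the Pycard count was not tested here either.

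All 10 log2 fold changes in sWAT were above 0, as were 53.3% of those of all genes, and their median was 0.76 against 0.03 for all genes. In 8 of the 10 genes, all but Nlrp3 and Casp1, every Csn8AKO library was above every Ctrl library, as in 5.80% of all genes tested; the opposite held for none of the 10 and for 8.23% of all genes. The number of calls rested on single libraries. It was 3 without Ctrl 1, 2 without Ctrl 2, Ctrl 3, Ctrl 4, Csn8AKO 1 or Csn8AKO 3, and 4 without Csn8AKO 2 or Csn8AKO 4. The call of Naip2 was lost without Ctrl 4 (adjusted p = 0.0517), that of Gsdmd in 6 of the 8 fits, that of Nlrc4 in 5 and that of Nlrp1a in 7. Without both libraries of high B cell markers the same number, 5, was called, and without both libraries of highest ribosomal RNA only Naip2 was (adjusted p = 0.0389). Gsdme then stood at 1.02 on the log2 scale, with an adjusted p of 0.0754. Without both sWAT libraries of high muscle markers it was again only Naip2 (adjusted p = 0.0352), and Gsdme then had an adjusted p of 0.0615. Scaled by library size alone, none of the 10 passed. Other tools called more: DESeq2 called 7 of the 10, with Nlrp1b (adjusted p = 0.0132) and Naip5 (0.0111) added, limma voom called 6, with Naip5 added (0.0370), and 1 fit of all 4 groups called 7, with Naip5 (0.0210) and Pycard (0.0374) added. The higher calls over all genes moved as well. They were 434 in the main fit, 912 by DESeq2, 1077 by limma voom and 1044 with all 4 groups. They were 106 by library size alone, 130 without the libraries of highest ribosomal RNA and 154 without those of high muscle markers. With 1 library left out they were 147 to 804.

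**Figure D1:**
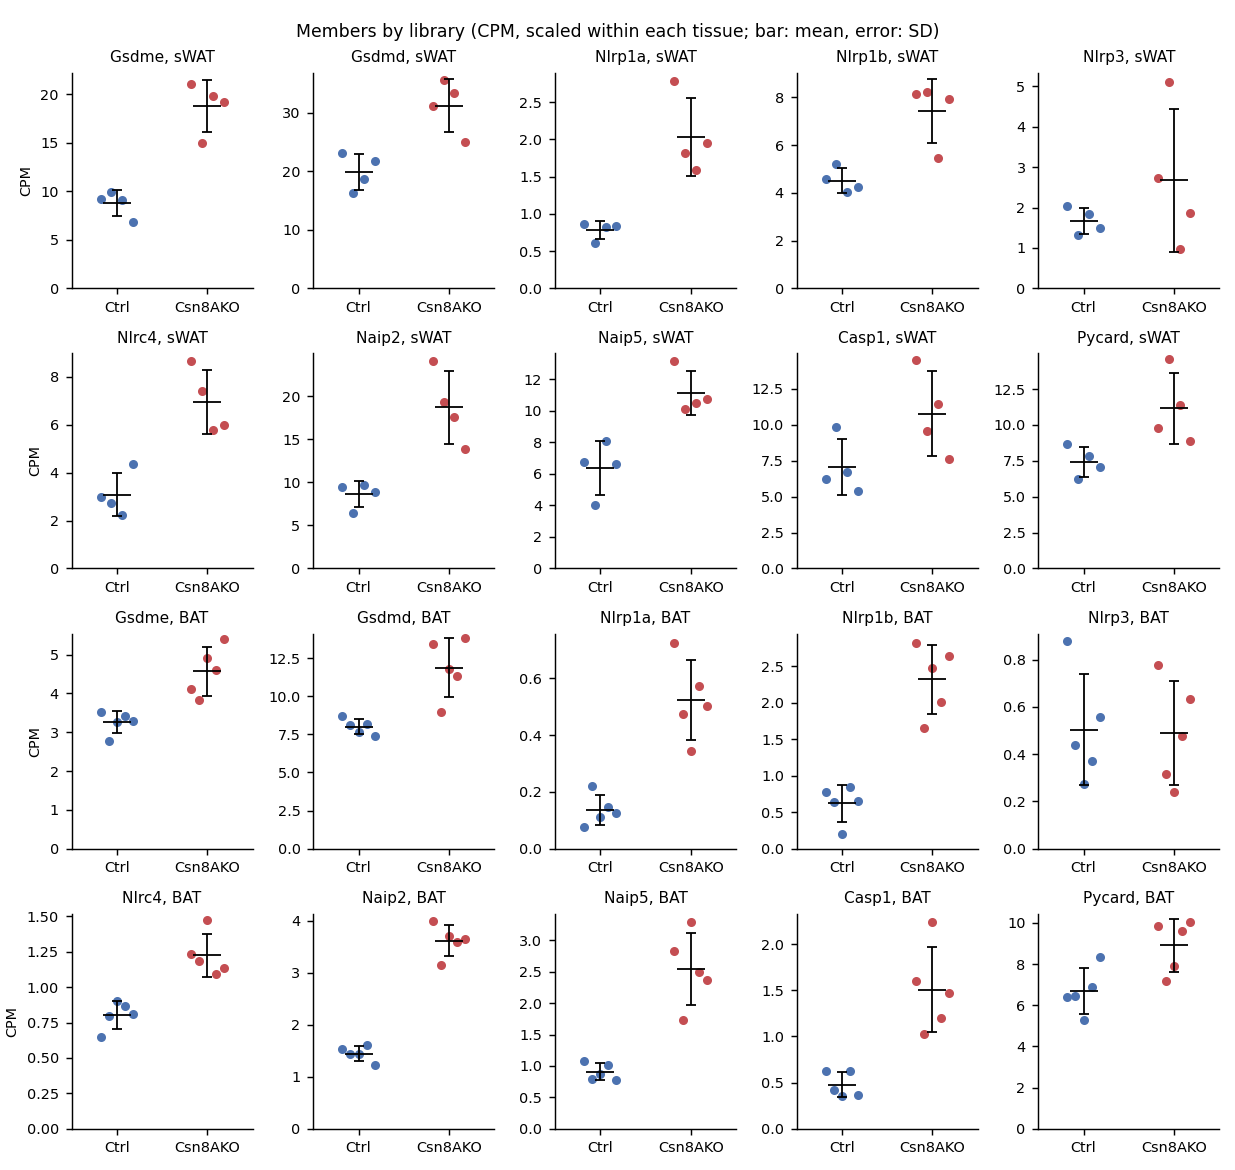
CPM of each of the 10 genes in every library (blue, Ctrl; red, Csn8AKO; horizontal bar, mean; error bar, SD), with the upper 10 panels for sWAT (n = 4 a group) and the lower 10 for BAT (n = 5 a group). In sWAT the red points lie above all blue points for every gene except Nlrp3 and Casp1, and in BAT for every gene except Nlrp3 and Pycard.

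In BAT, 9 of the 10 genes were higher in Csn8AKO, with Nlrp3 as the exception, and none was lower. Here the background was higher, since 16.0% of the 22345 genes tested rose and 15.8% fell. The largest rises were those of the Nlrp1 sensors, Casp1 and the NAIP sensors. Nlrp1a and Nlrp1b, both among the 9, passed the expression filter only through the Csn8AKO libraries. Of the 5 Ctrl libraries, 1 was above the minimum for Nlrp1a and 4 were for Nlrp1b. Of 12 macrophage markers, 11 rose in the same comparison. The values that follow are for libraries 1 to 5 in order.

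Nlrp1b stood at 0.776, 0.644, 0.194, 0.849 and 0.649 CPM in Ctrl BAT and at 2.82, 1.66, 2.47, 2.01 and 2.64 CPM in Csn8AKO BAT. The lowest Csn8AKO library was well above the highest Ctrl library, and Nlrp1b rose by 1.91 (SE 0.31, adjusted p = 3.10e-04). Nlrp1a stood at 0.0776, 0.220, 0.113, 0.148 and 0.126 CPM in Ctrl and at 0.725, 0.473, 0.344, 0.575 and 0.501 CPM in Csn8AKO. These are only 3 to 13 reads in a Ctrl library and 10 to 43 in a Csn8AKO library, and Nlrp1a rose by 1.92 (SE 0.35, adjusted p = 8.41e-04) with no overlap.

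Naip2 stood at 1.53, 1.44, 1.44, 1.61 and 1.23 CPM in Ctrl BAT and at 4.00, 3.15, 3.71, 3.58 and 3.64 CPM in Csn8AKO. It had the smallest adjusted p of the 10, 1.66e-05, with a rise of 1.33 (SE 0.15), and the libraries of each group lay close together. Naip5 stood at 1.09, 0.796, 0.871, 1.01 and 0.775 CPM in Ctrl and at 2.83, 1.73, 3.30, 2.49 and 2.37 CPM in Csn8AKO. It rose by 1.49 (SE 0.20, adjusted p = 7.61e-05), again without overlap. Nlrc4, their partner, stood at 0.646, 0.796, 0.903, 0.867 and 0.811 CPM in Ctrl and at 1.23, 1.18, 1.48, 1.09 and 1.14 CPM in Csn8AKO. The groups were apart by a smaller margin, with a rise of 0.59 (SE 0.19, adjusted p = 0.0263).

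Casp1 stood at 0.620, 0.423, 0.355, 0.627 and 0.361 CPM in Ctrl BAT and at 1.60, 1.02, 2.23, 1.20 and 1.47 CPM in Csn8AKO. Every Csn8AKO library was above every Ctrl library, and Casp1 rose by 1.66 (SE 0.27, adjusted p = 3.26e-04). Pycard stood at 6.39, 6.44, 5.29, 6.90 and 8.37 CPM in Ctrl and at 9.87, 7.17, 7.90, 9.60 and 10.0 CPM in Csn8AKO. Its groups overlapped through Ctrl 5, and its rise was 0.42 (SE 0.14, adjusted p = 0.0369). Gm45205, which shares exonic bases with Pycard, had 62 to 149 reads in Ctrl and 73 to 268 in Csn8AKO BAT, unscaled. Its counts in the smaller Csn8AKO libraries 2, 3 and 5 were 96, 73 and 95, so these ranges cannot be compared between genotypes. Its part in the Pycard count was not tested.

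Gsdmd stood at 8.69, 8.10, 7.63, 8.15 and 7.41 CPM in Ctrl BAT and at 13.4, 8.99, 11.8, 11.4 and 13.8 CPM in Csn8AKO. It rose by 0.57 (SE 0.12, adjusted p = 0.00271), with Csn8AKO 2 just above the highest Ctrl library. Gsdme stood at 3.52, 2.78, 3.26, 3.43 and 3.30 CPM in Ctrl and at 4.12, 3.82, 4.91, 4.61 and 5.41 CPM in Csn8AKO. It rose by 0.49 (SE 0.14, adjusted p = 0.0159), and the groups were apart. Nlrp3 stood at 0.879, 0.440, 0.274, 0.369 and 0.559 CPM in Ctrl and at 0.776, 0.315, 0.241, 0.479 and 0.635 CPM in Csn8AKO. The groups lay over each other. The change was 0.02 on the log2 scale, with a 95% interval of -0.78 to 0.82 (adjusted p = 0.975).

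The median log2 fold change of the 10 genes in BAT was 0.96 against 0.0063 for all genes, and all 10 were above 0, as were 50.5% of all genes. In 8 of the 10, all but Nlrp3 and Pycard, every Csn8AKO library was above every Ctrl library, as in 10.1% of all genes, and the opposite held for none of the 10 and for 10.9% of all genes. The call of Pycard was lost without Ctrl 1, Ctrl 2, Ctrl 3, Ctrl 4, Csn8AKO 1, Csn8AKO 4 or Csn8AKO 5, with adjusted p from 0.0588 to 0.0954. That of Nlrc4 was lost without Ctrl 1, Ctrl 2 or Csn8AKO 3, with adjusted p from 0.0535 to 0.0621. Without both libraries of high muscle markers, 6 of the 10 were called, and Gsdme (adjusted p = 0.0598), Nlrc4 (0.0706) and Pycard (0.218) were not. The higher calls over all genes then fell from 3585 to 2560.

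**Figure D2:**
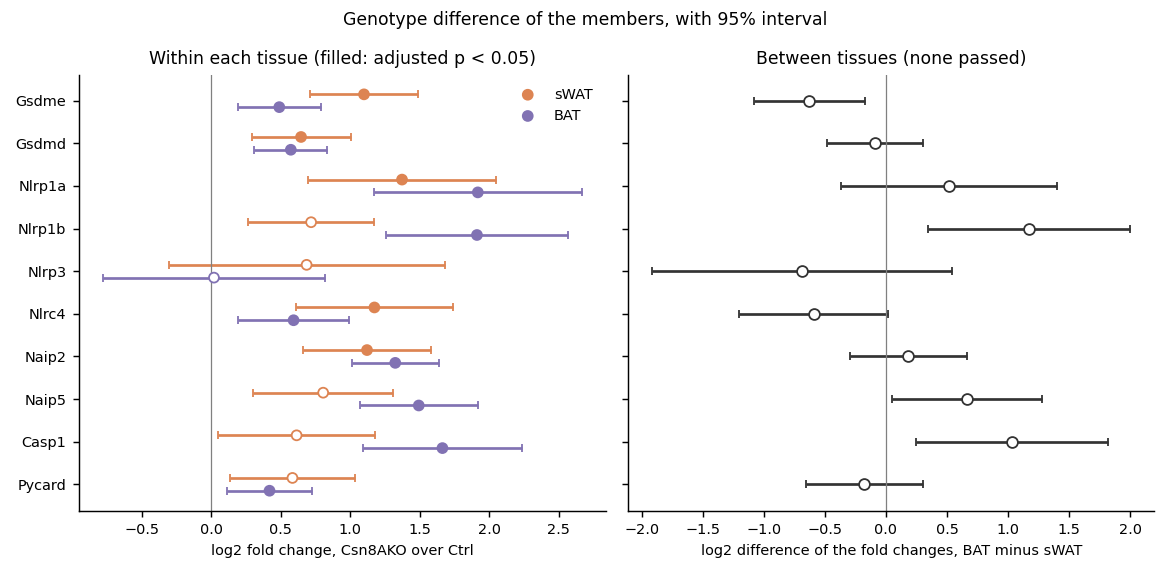
Left, log2 fold change of each gene, Csn8AKO over Ctrl, in sWAT and BAT (point, estimate; line, 95% interval; filled where the adjusted p is under 0.05), and right, the difference of the 2 fold changes, BAT minus sWAT. Of the points on the left, 5 are filled in sWAT and 9 in BAT, and none passed on the right, where the intervals of Gsdme, Nlrp1b, Naip5 and Casp1 leave out 0.

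A further fit of all 18 libraries asked whether the change with genotype was itself different in the 2 tissues. None of the 10 genes passed by edgeR, where 2.36% of 22509 genes did. DESeq2 called 1 of the 10, Nlrp1b (adjusted p = 0.0297), and limma voom called 2, Nlrp1b (adjusted p = 0.0466) and Gsdme (adjusted p = 0.0419). Over all genes, edgeR called 362 interactions above 0 and 170 below, DESeq2 737 and 355, and limma voom 572 and 331. The change of Gsdme was 0.63 smaller in BAT than in sWAT, an interaction of -0.63 (95% interval -1.08 to -0.17, adjusted p = 0.150). Those of Nlrp1b, Casp1 and Naip5 were larger in BAT, by 1.17 (0.35 to 2.00, adjusted p = 0.140), by 1.03 (0.25 to 1.82, adjusted p = 0.173) and by 0.67 (0.05 to 1.28, adjusted p = 0.279). The intervals of the other 6 held 0. They ran from -0.48 to 0.30 for Gsdmd, -0.29 to 0.66 for Naip2, -0.66 to 0.30 for Pycard and -1.20 to 0.02 for Nlrc4, and were widest for Nlrp1a (-0.37 to 1.40) and Nlrp3 (-1.92 to 0.54).

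Ratios of 2 members within a library do not depend on how libraries are scaled. The count of Nlrp1a over that of Nlrp1b was 0.117 to 0.206 in the Ctrl and 0.220 to 0.341 in the Csn8AKO sWAT libraries, without overlap but with only 12 to 19 Nlrp1a reads in Ctrl, and the difference in ratio was not tested. In BAT this ratio was 0.100 to 0.583 in Ctrl and 0.139 to 0.286 in Csn8AKO, with overlap and with few Nlrp1a reads. The count of Casp1 over that of Pycard was 0.0431 to 0.0972 in Ctrl and 0.125 to 0.283 in Csn8AKO BAT, again without overlap. In sWAT the same ratio overlapped, at 0.717 to 1.59 in Ctrl and 0.655 to 1.48 in Csn8AKO. The count of Gsdme over that of Gsdmd overlapped in both tissues, at 0.313 to 0.611 in Ctrl and 0.421 to 0.769 in Csn8AKO sWAT and at 0.343 to 0.445 and 0.306 to 0.425 in BAT. For Naip5 over Naip2 the groups overlapped as well, at 0.627 to 0.835 in Ctrl and 0.526 to 0.778 in Csn8AKO sWAT, and at 0.553 to 0.712 and 0.550 to 0.889 in BAT.

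To order the members by level, counts were divided by the exon length in the files and scaled over all 18 libraries together (FPKM). Gsdmd was the highest in every group, at 8.11 ± 1.13 FPKM in sWAT Ctrl, 12.6 ± 1.70 in sWAT Csn8AKO, 3.48 ± 0.230 in BAT Ctrl and 5.10 ± 0.779 in BAT Csn8AKO (SD), and its lowest library was above the highest library of the next member in each group. In sWAT Ctrl, Casp1 (2.18), Pycard (1.89), Naip2 (1.71) and Naip5 (1.18) followed as mean FPKM, each overlapping the next, then Nlrp1b (0.694), Gsdme (0.665), Nlrc4 (0.621) and Nlrp3 (0.398), which also overlapped their neighbours, and Nlrp1a (0.181) was last and apart. In BAT Ctrl, Pycard (1.82) was second and apart from both neighbours, and the other 8 lay between 0.0340 FPKM (Nlrp1a) and 0.309 FPKM (Naip2). Casp1 was 2.18 ± 0.642 FPKM in sWAT Ctrl and 0.158 ± 0.0454 in BAT Ctrl, while Pycard was 1.89 ± 0.223 and 1.82 ± 0.300 FPKM, with overlapping ranges. Gm45205, which overlaps Pycard on the opposite strand, had 0 to 11 reads in sWAT Ctrl and 62 to 149 in BAT Ctrl, unscaled. Whether it bears on the level of Pycard was not tested. In BAT Csn8AKO, Nlrp3 (0.123 FPKM) and Nlrp1a (0.128 FPKM) were the lowest and overlapped. The order depended on the length used. The files sum the exons of all transcripts, which for Gsdme is 12742 bases against 4383 in its longest coding transcript, and by the latter Gsdme moved from rank 7 to rank 3 in sWAT Ctrl, and Casp1 from rank 7 to rank 4 in BAT Ctrl.

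**Figure D3:**
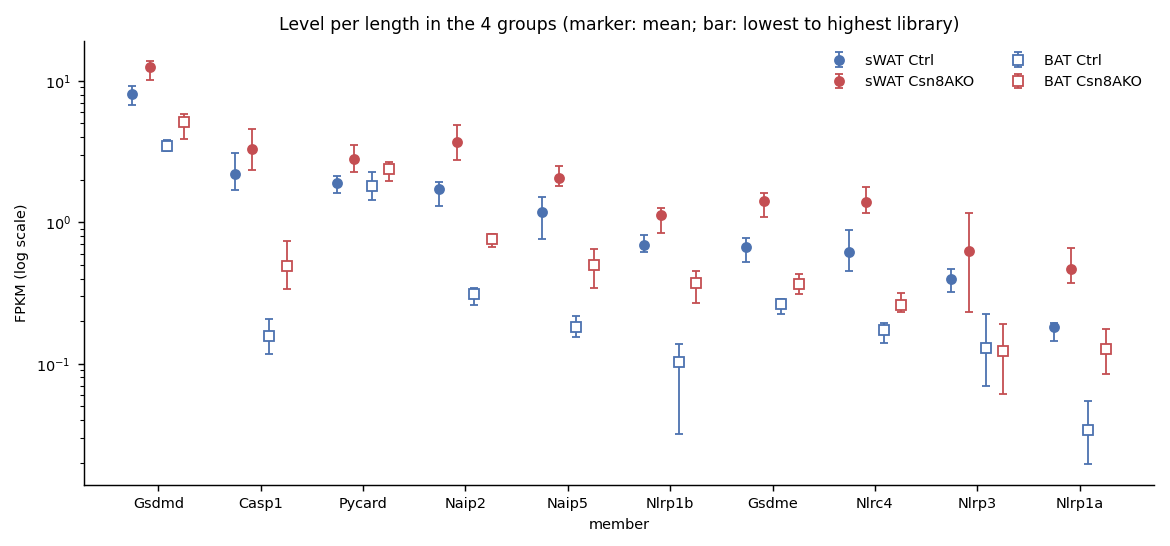
Level of each member per length (FPKM, log axis) in the 4 groups, as the mean (marker) and the lowest to highest library (bar), in the order of the sWAT Ctrl means. Gsdmd is the highest in each group, and Pycard is the member whose sWAT Ctrl and BAT Ctrl means lie closest, at 1.89 and 1.82 FPKM.

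Cell type markers moved with these genes. In sWAT, 7 of 12 macrophage markers were higher in Csn8AKO, Adgre1 (the F4/80 antigen, log2 fold change 1.31, adjusted p = 0.00180) and Cd68 (1.33, 0.0127) among them, none was lower, and none was at 0. Their summed level was 1032 to 1466 CPM in Ctrl and 1495 to 2711 CPM in Csn8AKO, without overlap (two-sided exact permutation p = 0.0286, the smallest that 4 against 4 allow). In BAT, 11 of 12 were higher, with Cd68 up by 2.52 (adjusted p = 1.12e-08) and Adgre1 by 1.63 (adjusted p = 6.29e-06), and the sum was 130 to 173 CPM in Ctrl and 353 to 447 CPM in Csn8AKO (exact permutation p = 0.00794, the smallest that 5 against 5 allow). Over the 14 lists compared in each tissue, the Benjamini-Hochberg adjusted values were 0.100 for the macrophage list in sWAT and 0.0185 for it in BAT, both by exact permutation. The part of the macrophage markers in the differences of the 10 genes was not tested.

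Other lists moved too. The 5 monocyte markers summed to 36.2 to 64.0 CPM in Ctrl and 67.2 to 163 CPM in Csn8AKO sWAT (1 of 5 higher) and to 7.66 to 9.80 and 13.7 to 17.6 CPM in BAT (3 of 4 tested higher). The 5 mast cell markers were at 42.0 to 72.7 CPM in Ctrl and 64.6 to 209 CPM in Csn8AKO sWAT (0 of 5 called) and at 1.66 to 4.11 and 15.3 to 30.2 CPM in BAT (4 of 4 tested higher). The 7 fibroblast and progenitor markers were all higher in BAT, at 1034 to 1760 CPM in Ctrl and 2716 to 4641 CPM in Csn8AKO, and none was called in sWAT, where the sums were 9517 to 10551 and 10051 to 16847 CPM. The 8 adipocyte markers summed to 11121 to 16036 CPM in Ctrl and 4653 to 10243 CPM in Csn8AKO sWAT (3 lower, 0 higher, exact permutation p = 0.0286, adjusted 0.100), and overlapped in BAT at 11304 to 13155 and 10960 to 13708 CPM (2 lower, 0 higher). Of 8 neutrophil markers only 2 could be tested in sWAT and 1 in BAT, none was called, and Ly6g was at 0 in all sWAT libraries. Their sums were 2.01 to 4.48 CPM in Ctrl and 3.93 to 15.2 CPM in Csn8AKO sWAT and 0.649 to 1.11 and 1.24 to 1.79 CPM in BAT. The 7 brown adipocyte markers summed to 73.4 to 161 CPM in Ctrl and 11.6 to 33.1 CPM in Csn8AKO sWAT, without overlap (2 lower, 0 higher, exact permutation p = 0.0286, adjusted 0.100), and to 4418 to 7378 and 4317 to 9189 CPM in BAT (1 higher, 1 lower). The 5 dendritic cell markers overlapped in both tissues, at 42.0 to 57.2 CPM in Ctrl and 40.7 to 65.3 CPM in Csn8AKO sWAT (0 called) and 42.7 to 58.9 and 49.3 to 62.2 CPM in BAT (3 higher). The T and NK cell markers were at 5.45 to 196 CPM in Ctrl and 8.48 to 263 CPM in Csn8AKO sWAT (0 of 8 called), and at 2.61 to 3.97 and 5.87 to 10.9 CPM in BAT (4 of 8 higher). Whether these lists bear on the members was not tested.

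**Figure D4:**
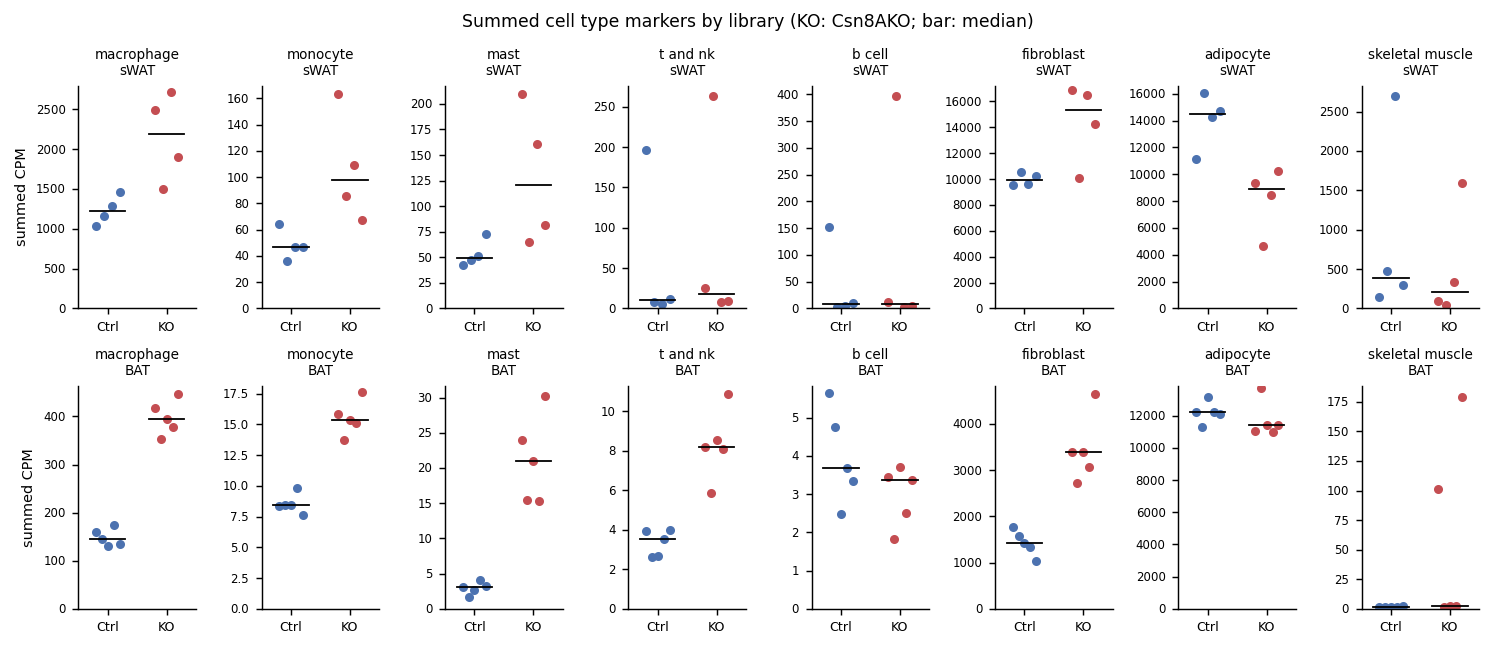
Summed CPM of 8 marker lists in every library of sWAT (top) and BAT (bottom), with Ctrl in blue, Csn8AKO (KO) in red and the median as a bar. Macrophage and monocyte sums do not overlap between genotypes in either tissue, and the high points of the sWAT B cell panel and of the BAT muscle panel are the libraries that stood apart.

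The other genes of the pathway gave the surroundings of the 10. Of 53 listed genes, 51 were found in the files and 34 could be tested in each tissue. In sWAT, 1 of them was higher and none was lower, against 2.30% and 3.00% of all genes. Their median log2 fold change was 0.20, against 0.03 for all genes. The 1 was Il1rn, the gene of the interleukin-1 receptor antagonist, at 0.724, 1.01, 0.711 and 1.30 CPM in Ctrl and 5.93, 9.32, 10.4 and 4.34 CPM in Csn8AKO. It rose by 2.99 (SE 0.35, adjusted p = 0.00242), more than any of the 10 members. By other tools more passed: DESeq2 called 4 higher and limma voom 5, and 4 were called without Csn8AKO 2 and 2 without Ctrl 1 or Ctrl 3. In BAT, 10 of the 34 were higher and 3 lower, with a median of 0.16, against 16.0% higher and 15.8% lower among all genes, which is also the background of the counts by role. Among these, 1 was lower without Csn8AKO 3 or Csn8AKO 5.

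Among pore and rupture genes, 8 of 9 could not be tested in either tissue. These were the Gsdma and Gsdmc genes and Pjvk, with at most 20 reads in any sWAT and 8 in any BAT library, too few for a comparison. Ninj1, whose protein ruptures the membrane after the pores form, was at 41.8 to 68.6 CPM in Ctrl and 55.8 to 112 CPM in Csn8AKO sWAT. Its log2 fold change there was 0.81 and missed the threshold (adjusted p = 0.0737), and in BAT it was 0.02 (95% interval -0.17 to 0.21).

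Among the other sensors, none of 5 tested was called in sWAT and 3 of 4 were higher in BAT. Naip6, a close relative of Naip5, rose by 1.52 in BAT (SE 0.22, adjusted p = 1.54e-04), from 0.629 to 1.31 CPM in Ctrl to 2.51 to 3.74 CPM in Csn8AKO. Zbp1, the sensor of left-handed nucleic acid, rose by 1.36 (SE 0.22, adjusted p = 3.78e-04). Aim2, the sensor of cytosolic DNA, rose by 1.54 (SE 0.30, adjusted p = 0.00152), although Csn8AKO 2 (0.552 CPM) lay within the Ctrl range of 0.274 to 0.593 CPM. In sWAT, the log2 fold change of Aim2 was 0.58 (95% interval -0.45 to 1.61, adjusted p = 0.545), and its 2 highest libraries, Ctrl 1 (7.92 CPM) and Csn8AKO 2 (11.7 CPM), were those rich in B cell markers.

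Of the other proteases, 1 of 7 tested was called in BAT and none of 8 in sWAT. Casp4, the mouse caspase-11 that cuts gasdermin D after sensing lipopolysaccharide, rose by 1.53 in BAT (SE 0.31, adjusted p = 0.00195), from 0.258 to 0.776 CPM in Ctrl to 0.631 to 1.82 CPM in Csn8AKO, and its log2 fold change in sWAT was 0.53 (adjusted p = 0.156). Casp8, the initiator caspase of death receptors, had log2 fold changes of 0.26 in sWAT (adjusted p = 0.507) and 0.28 in BAT (adjusted p = 0.146).

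Of the regulators, 5 of 17 tested were higher and 3 lower in BAT, and none was called in sWAT. Irf8, a transcription factor of myeloid cells that drives the Naip genes, rose by 1.27 in BAT (SE 0.15, adjusted p = 3.76e-05), P2rx7, the ATP-gated channel upstream of NLRP3, by 0.96 (SE 0.14, adjusted p = 1.27e-04), and Tlr4, the receptor for lipopolysaccharide, by 0.63 (SE 0.14, adjusted p = 0.00294). Gbp3, a guanylate-binding protein induced by interferon, fell by 0.72 (SE 0.14, adjusted p = 0.00157). Nek7, the kinase that NLRP3 needs, had log2 fold changes of 0.09 in sWAT (adjusted p = 0.825) and -0.26 in BAT (adjusted p = 0.0575).

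Of the cytokines, Il18 rose by 1.95 in BAT (SE 0.35, adjusted p = 7.49e-04). It was at 0.362, 0.203, 0.0645, 0.203 and 0.270 CPM in Ctrl and 0.911, 0.867, 0.962, 0.725 and 0.735 CPM in Csn8AKO, with no overlap. In sWAT its log2 fold change was 0.61 (adjusted p = 0.209). Il1b had too few reads to be tested in sWAT, with 2 to 10 reads in Ctrl and 8 to 87 in Csn8AKO, where the 87 were in Csn8AKO 2, and its log2 fold change in BAT was 0.30 (95% interval -0.79 to 1.40). Il1rn was the 1 pathway gene whose change differed between the tissues, by -2.62 (SE 0.51, adjusted p = 0.00791), with 0.39 in BAT (adjusted p = 0.405).

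**Figure D5:**
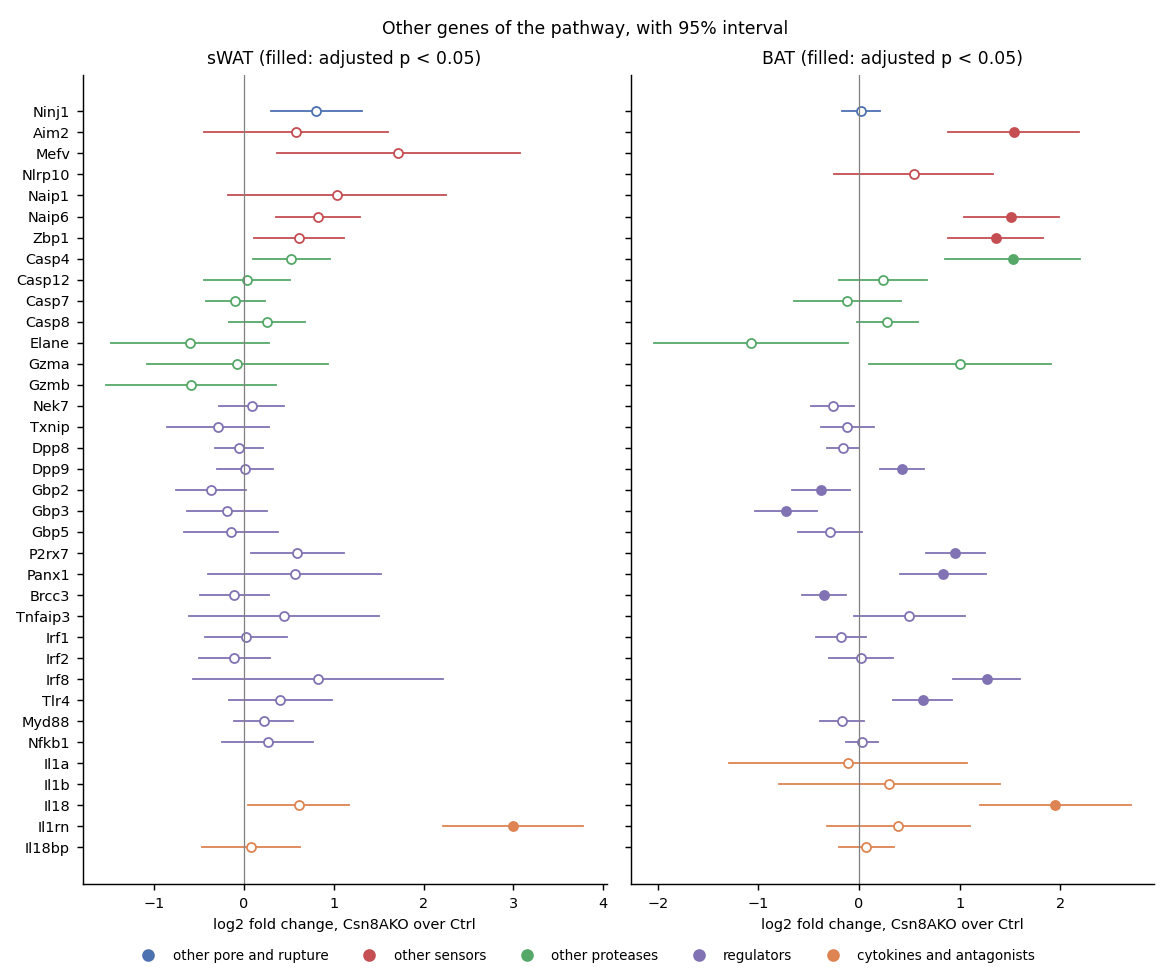
Log2 fold change, Csn8AKO over Ctrl, of pathway genes in sWAT (left) and BAT (right), coloured by role (point, estimate; line, 95% interval; filled where the adjusted p is under 0.05). In sWAT only Il1rn is filled, at 2.99, and in BAT 10 genes are filled on the right of 0 and 3 on its left.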

How the data were processed

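RNA was depleted of ribosomal RNA, sequenced as paired reads of 150 bases and, per the labels and the methods of the study, aligned with STAR to the GRCm38 genome of Ensembl release 101 and counted per gene with featureCounts as uniquely aligned, unambiguous reads. The deposited table of a library gives, for 55487 genes, the raw count, which the fits use, and the CPM, FPKM and TPM, which the authors derived from it. The deposited CPM and FPKM differed from values recomputed from the count by at most 4.37e-10 and, like the TPM, entered no fit. Of the gene IDs, 55141 were given a symbol.

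Genotypes were compared within each tissue with edgeR 4.0.16 in R 4.3.3 (TMM factors, filterByExpr with a minimum count of 10, robust quasi-likelihood fits, Benjamini-Hochberg adjustment over all genes tested), and the difference between tissues by the interaction over all 18 libraries. DESeq2 1.42.0 and limma 3.58.1 (voom) were alternatives. Standard errors follow from the log2 fold change and its F statistic. Tables were made with Python 3.11.15 and scipy 1.17.1. Depth was 15835721 to 66719937 reads; the precision of the scarcest genes is limited by their few reads, and p-values cover the spread between mice of a single cohort.

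The members and gene lists were chosen with earlier results of these data known. All 10 members are named; from the pathway list the text names up to 4 called genes of smallest adjusted p per role and tissue, and Casp4, Casp8, Aim2, Ninj1, Nek7, Il1b and Il18 whatever their values; 1 further gene named by this rule is not reported here, and called genes beyond the rule enter the counts only. Sequences come from RefSeq promoters, GENCODE M21 transcripts and the primers of the study. The symbols of all 10 members matched the counted genes. Gsdmd had no RefSeq promoter in the set, and of the members only Gsdme and Nlrp1a had primers in the study. Fits that leave out pairs of libraries, and levels per transcript length, were chosen after seeing the data.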

Additional observations from a re-analysis of the deposited data

Results flagged for a closer look

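Within each group of 4 or 5 libraries, the level of each member was checked for a library far from the others by Dixon's ratio at its 95% critical value, which chance passes in about 1 of 20 groups. Of 40 groups, 2 passed. Nlrp1a was 0.608 CPM in sWAT Ctrl 2, below the next library at 0.829 CPM, which is a difference of a few reads on a count of 12. Nlrp1b was 5.45 CPM in sWAT Csn8AKO 3, below the next library at 7.93 CPM, on a count of 79; this library also had 31.8% ribosomal RNA, whose part in the value was not tested.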

How the results depend on the processing

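The 10 genes kept a log2 fold change above 0 in sWAT under each setting that gave a value, and so did all but Nlrp3 in BAT; in BAT, keeping only genes above 1 CPM gave no value for Nlrp1a and Nlrp3. The number called moved. In sWAT, 5 were called; 0 were called by library size alone, 3 with no filter on low counts and 1 without the libraries of highest ribosomal RNA, 1 without the sWAT libraries of high muscle markers, 7 by DESeq2, 6 by limma voom, 7 with all 4 groups in 1 fit, and 2 to 4 when 1 library was left out. Of the pathway genes, 1 was higher in sWAT; it was 2 without ribosomal RNA genes, 2 when only genes above 1 CPM were kept, 4 by DESeq2, 5 by limma voom, 5 with all 4 groups in 1 fit and 5 without the libraries of high B cell markers, and 1 to 4 when 1 library was left out. In BAT, 3 pathway genes were lower, against 1 by library size alone, 5 by limma voom and 1 to 4 when 1 library was left out. Of the interactions of the members, 0 passed, against 1 by DESeq2 and 2 by limma voom.

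The sources do not state whether the replicate numbers pair the mice. Deviations of same-numbered libraries correlated at -0.387 to 0.223 in sWAT and -0.098 to 0.101 in BAT, which cannot settle whether they were paired. With the number as a replicate block, 0 members were called in sWAT and 8 in BAT. Over all genes, 134 were then higher in sWAT and 3353 in BAT.

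Signs turned in these cases, none near the threshold. Nlrp3 in BAT was -0.013 with all 4 groups in 1 fit, -0.034 with the replicate block, -0.46 without the libraries of high muscle markers and -0.22 to 0.29 when 1 library was left out. The interaction of Gsdmd was 0.13 and that of Pycard 0.0064 by library size alone, that of Nlrp3 was 0.11 by limma voom and that of Naip2 was -0.011 without the libraries of highest ribosomal RNA. The cause was not tested. Library size alone moved the median of all genes to 0.14 in BAT and 0.21 in the interaction, and changed the higher and lower calls over all genes from 434 and 566 to 106 and 328 in sWAT and from 3585 and 3536 to 4183 and 2087 in BAT. Depth limits Nlrp1a in BAT, with 3 to 13 reads in Ctrl.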
